A study of Sus scrofa with 13 samples.

Results

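Cathepsins are proteases that break down proteins inside lysosomes, the acid compartments in which a cell degrades material from autophagy and endocytosis. Most of them, among them CTSB, CTSC, CTSH, CTSK, CTSL, CTSS and CTSZ, are cysteine proteases of the papain family, CTSA is a serine carboxypeptidase and CTSD is an aspartic protease. They are made as inactive precursors and are sorted to lysosomes largely by mannose 6-phosphate receptors, and the cysteine proteases among them are held in check by cystatins. In skeletal muscle cathepsins are known for their part in protein turnover and, after slaughter, for their possible share in meat tenderization. Macrophages and fibroblasts in the tissue express cathepsins as well.

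The members were the listed genes CTSA, CTSB, CTSC, CTSD, CTSF, CTSH, CTSK, CTSL, CTSS and CTSZ, taken by symbol where both count tables held them. Of the 10 symbols, 8 matched a gene among the 25322 gene identifiers of the tables. CTSD and CTSF matched no identifier and were not analysed here. All 8 genes found passed the filter on low counts in every comparison.

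The libraries held poly(A) RNA of the loin muscle (longissimus lumborum), each from a different female pig, 13 in all, which were Hampshire or Pietrain, 6 months old and not related to each other. Within each breed, pigs with a high and pigs with a low loin weight had been picked from the ends of a larger population that was slaughtered at about the same body weight. The groups held 3 Hampshire pigs with high loin weight, 3 Hampshire pigs with low loin weight, 4 Pietrain pigs with high loin weight and 3 Pietrain pigs with low loin weight. The labels give no treatment and no genotype, and each pig was 1 library.

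Total counts per pig ranged from 11312755 to 20134612, and in all 15 pairs of pigs of the same group the counts differed by more than sampling noise. Levels are given as CPM, the counts scaled to library size and by TMM over all pigs, and means with the standard deviation between pigs. Genes were not scaled to length, so a CPM is compared only between pigs for the same gene. ACTA1, the skeletal muscle actin, lay between 27240 and 137800 CPM and CKM, the muscle creatine kinase, between 15950 and 63080 CPM, so these markers of muscle were abundant in every pig, as were MYH1 (at least 13070 CPM) and MYLPF (at least 11360 CPM), the fast fibre myosin heavy and light chains. MYH7, the slow fibre myosin and the last of the 5 muscle markers of 10 listed that matched a gene, ranged from 6.57 CPM in Pietrain low pig 5 to 6960 CPM. A gene was called when its adjusted p was under 0.05 and its fold change at least 1.2 (the quasi-likelihood test of edgeR, Benjamini-Hochberg adjusted over all genes tested), and every adjusted p here is from that test unless another tool is named. Hampshire and Pietrain pigs came in separate count tables and the labels give no sequencing date, so breed and any difference in handling between the tables cannot be told apart.

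CTSA, CTSB and CTSZ were higher in Hampshire than in Pietrain muscle, both among pigs with low and among pigs with high loin weight, by log2 fold changes between 1.19 and 1.86. CTSH was higher in Hampshire than in Pietrain among pigs with high loin weight, and it was the only member called between high and low loin weight, in Hampshire. No member was called between high and low loin weight in Pietrain. CTSC, CTSK, CTSL and CTSS were not called by edgeR in any comparison as designed, though CTSC and CTSK were called under other settings, given with their values, and CTSS without 1 pig.

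**Figure D1:**
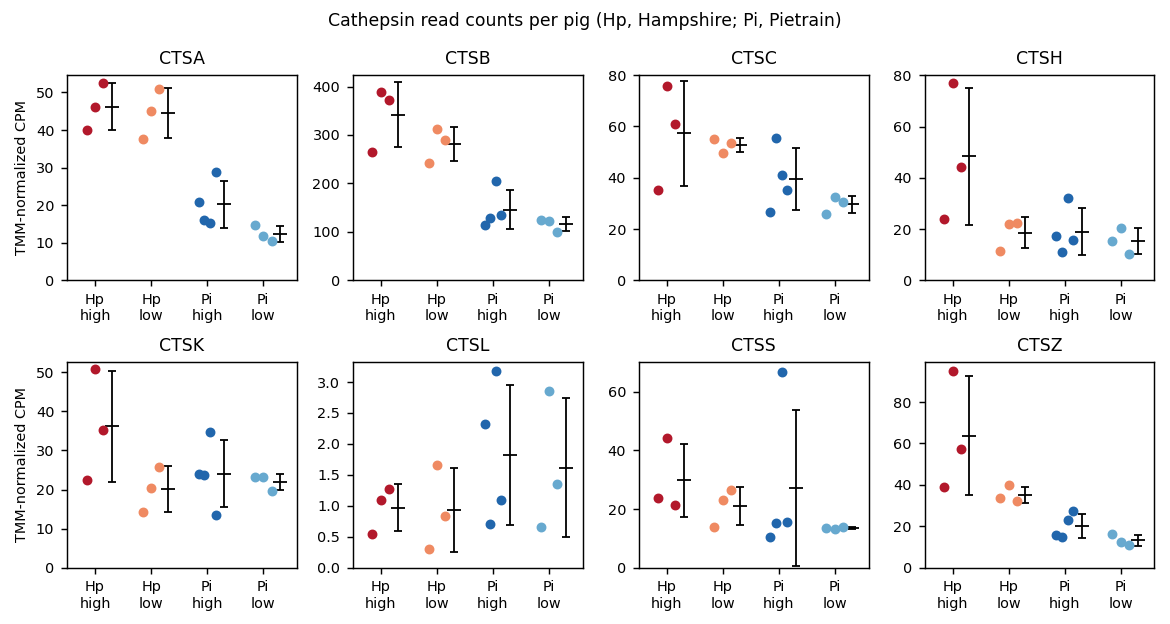
TMM-normalized CPM of the 8 cathepsins in each of the 13 pigs (points; Hp, Hampshire; Pi, Pietrain; high and low loin weight), with the mean and standard deviation of each group beside them (black). All 6 Hampshire pigs lie above all 7 Pietrain pigs for CTSA, CTSB and CTSZ, and the Pietrain pig with high loin weight at 66.9 CPM of CTSS lies far above its group.

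Between the breeds, 2300 of 12831 genes were called at low loin weight (17.9% in either direction, 7.84% higher in Hampshire) and 6001 at high loin weight (46.8%, 22.6% higher in Hampshire). Of the 8 cathepsins, 3 were called at low loin weight and 4 at high loin weight, all higher in Hampshire. The median log2 fold change of the 8 was 0.74 at low loin weight, where that of all genes tested was 0.00, and 0.89 at high loin weight, where that of all genes was 0.02. The values of the Hampshire and Pietrain pigs did not overlap for 5 members at low loin weight (CTSA, CTSB, CTSC, CTSS and CTSZ) and for 3 at high loin weight (CTSA, CTSB and CTSZ), each higher in Hampshire. Over all genes, such a separation with Hampshire higher was found for 21.4% at low and 24.0% at high loin weight. In these bulk samples, fewer cells of a type and less RNA per cell cannot be told apart.

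CTSA, also called protective protein, is a serine carboxypeptidase that stabilizes the sialidase NEU1 and the beta-galactosidase GLB1 in a lysosomal complex. Its gene lies at chr17:53729012-53736219 of Sscrofa10.2. Hampshire pigs had 40.0, 46.0 and 52.6 CPM at high loin weight and 37.5, 45.0 and 50.9 CPM at low loin weight. Pietrain pigs had 15.2, 16.2, 20.9 and 28.7 CPM at high loin weight and 10.4, 11.9 and 14.6 CPM at low loin weight. The Hampshire groups overlapped almost wholly, both lay above every Pietrain pig, and within Pietrain each pig with high loin weight lay above each with low loin weight, a separation found for 2.08% of all genes there. The group means fell in the order Hampshire high (46.2 ± 6.30), Hampshire low (44.5 ± 6.68), Pietrain high (20.2 ± 6.19) and Pietrain low (12.3 ± 2.16), of which the first pair did not differ beyond the spread.

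CTSA had the largest breed difference of the members at low loin weight, with a log2 fold change of 1.86 (SE 0.25, 3.62-fold, adjusted p = 0.00251). At high loin weight it was 1.19 (SE 0.22, 2.28-fold, adjusted p = 0.000826). Within Hampshire, high against low loin weight gave 0.06 (SE 0.18, adjusted p = 0.834). Within Pietrain it was 0.76 (SE 0.27), with an unadjusted p of 0.0184 and an adjusted p of 0.939. The exact two-sided permutation test gave p = 0.0571, the smallest it can give with 4 against 3 pigs, so it could not fall under 0.05. The loin weight effect did not pass the test of a difference between the breeds (log2 difference -0.67, adjusted p = 0.255).

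The CTSA gene overlaps NEURL2, a gene of muscle ubiquitin ligation, by 348 bases, and the libraries did not mark the strand, so reads in that stretch cannot be assigned to either gene. NEURL2 had 5.85 to 28.8 CPM and was itself higher in Hampshire, by 0.98 (log2, adjusted p = 0.0171) at low and by 1.45 (adjusted p = 0.000127) at high loin weight. Unlike CTSA, NEURL2 was called in Hampshire between high and low loin weight, at a log2 fold change of 0.76 (adjusted p = 0.0259). The part of shared reads in the CTSA values was not tested.

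The 2 partners of CTSA in the complex were also higher in Hampshire. NEU1 had 6.74 to 9.38 CPM in the Hampshire pigs and 1.27 to 4.95 CPM in the Pietrain pigs, with no overlap, and its log2 fold change was 1.77 (adjusted p = 0.0153) at low and 1.38 (adjusted p = 0.00613) at high loin weight. GLB1 had 2.57 to 5.05 CPM in Hampshire and 0.985 to 2.59 CPM in Pietrain, which overlapped narrowly, and its log2 fold change was 1.16 (adjusted p = 0.0371) at low and 0.97 (adjusted p = 0.0201) at high loin weight. Neither was called between high and low loin weight in either breed. PSAP, the precursor of the saposins that help lysosomal enzymes act on lipids, was higher in Hampshire at low loin weight (1.08, adjusted p = 0.00889), and it differed by 0.41 (adjusted p = 0.0635) at high loin weight.

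CTSB, a cysteine protease that cleaves both within proteins and from their carboxyl end, lies at chr14:16202844-16223503. Hampshire pigs had 265, 372 and 389 CPM at high and 242, 289 and 312 CPM at low loin weight. Pietrain pigs had 114, 129, 136 and 204 CPM at high and 100.4, 123 and 126 CPM at low loin weight. Every Hampshire pig thus lay above every Pietrain pig, while high and low loin weight overlapped in both breeds. The mean was 342 ± 67.1 in Hampshire high, 281 ± 35.5 in Hampshire low, 146 ± 40.0 in Pietrain high and 116 ± 13.9 in Pietrain low, and the step between Hampshire low and Pietrain high was the only one larger than the spread of the groups beside it.

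The breed difference of CTSB was almost the same at both loin weights. The log2 fold change of Hampshire against Pietrain was 1.27 (SE 0.23, adjusted p = 0.00965) at low and 1.23 (SE 0.21, adjusted p = 0.000447) at high loin weight. Between high and low loin weight it was 0.28 (SE 0.20, adjusted p = 0.312) in Hampshire and 0.36 (SE 0.22, adjusted p = 0.939) in Pietrain. The log2 difference of these effects was -0.04 (adjusted p = 0.955). Without Pietrain low pig 8, the breed difference at low loin weight was 1.22 with an adjusted p of 0.0505, so that call rested on this pig, without which 111 genes were called in all.

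CTSZ, also known as cathepsin X, removes amino acids singly from the carboxyl end of proteins and is strongly expressed by macrophages. It lies at chr17:66511905-66519788. Hampshire pigs had 38.8, 57.3 and 95.2 CPM at high and 32.1, 33.4 and 39.7 CPM at low loin weight. Pietrain pigs had 14.6, 16.0, 22.8 and 27.2 CPM at high and 10.8, 12.3 and 16.3 CPM at low loin weight. Every Hampshire pig lay above every Pietrain pig. Within each breed the classes overlapped at their edges, with 1 Hampshire and 2 Pietrain pigs of high loin weight below the highest pig of low loin weight. Means ran from 63.8 ± 28.7 in Hampshire high through 35.1 ± 4.07 in Hampshire low and 20.2 ± 5.93 in Pietrain high to 13.2 ± 2.88 in Pietrain low, and the first step did not exceed the spread.

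CTSZ had the largest breed difference of the members at high loin weight, at a log2 fold change of 1.66 (SE 0.29, 3.15-fold, adjusted p = 0.000473). Among pigs with low loin weight it was 1.42 (SE 0.32, adjusted p = 0.0152). That call at low loin weight was lost without Hampshire low pig 2, Pietrain low pig 5 or Pietrain low pig 8, each left out alone, with adjusted p of 0.0728, 0.0696 and 0.0639 and log2 fold changes of at least 1.33. Between high and low loin weight, CTSZ differed by 0.86 (SE 0.30, adjusted p = 0.0595) in Hampshire and by 0.65 (SE 0.28, adjusted p = 0.939) in Pietrain. Pooled over both breeds it had the smallest unadjusted p of the members, 0.00336, at a log2 fold change of 0.74 and an adjusted p of 0.116. DESeq2 gave an adjusted p of 0.0187 for CTSZ in Hampshire and of 0.0248 over both breeds.

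CTSZ and NELFCD, a gene of the negative elongation factor, overlap by 3 bases. NELFCD had 40.5 to 105.4 CPM and was higher in Hampshire than in Pietrain by 0.69 (adjusted p = 0.016) at low and 1.12 (adjusted p = 6.19e-05) at high loin weight.

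**Figure D2:**
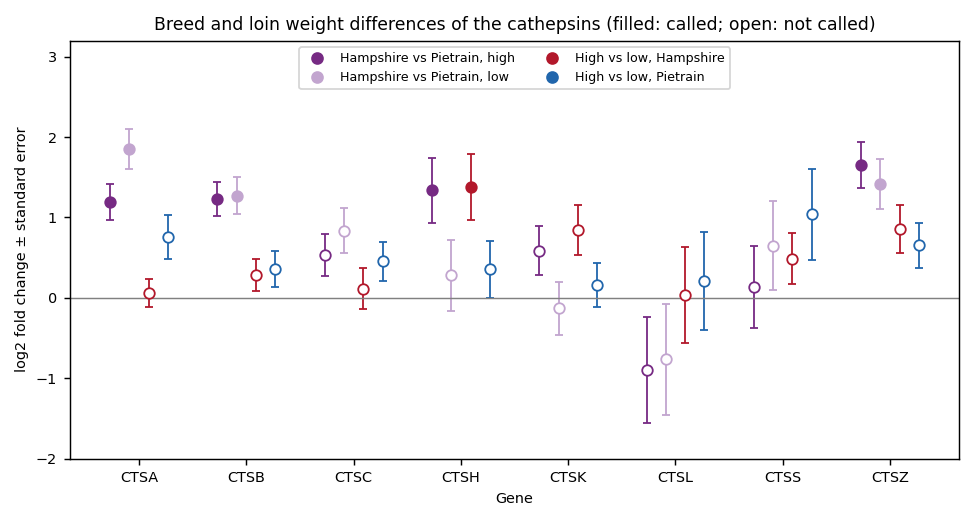
Log2 fold change ± standard error of each cathepsin for Hampshire against Pietrain at high (dark purple) and low (light purple) loin weight and for high against low loin weight in Hampshire (red) and Pietrain (blue); filled points were called and open points were not. CTSA, CTSB and CTSZ are filled in both breed comparisons, CTSH is filled at high loin weight and in Hampshire, and no blue point is filled.

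Between high and low loin weight, 3256 of 12228 genes were called in Hampshire (26.6% in either direction, 12.0% higher with high loin weight) and 0 of 12065 in Pietrain (0.00%). In Pietrain 398 genes had an unadjusted p under 0.05 with edgeR (3.30%), and DESeq2 called 1 gene, which was not a cathepsin. Of the cathepsins, 1 of 8 was called in Hampshire and 0 of 8 in Pietrain, where CTSA and CTSZ had an unadjusted p under 0.05. The log2 fold change was above 0 for 8 of 8 members in Hampshire and for 8 of 8 in Pietrain, against 51.6% and 52.4% of all genes tested. Its median over the members was 0.39 in Hampshire, where that of all genes was 0.03, and 0.41 in Pietrain, where that of all genes was 0.02. Several of these signs rested on small values, and the sign of CTSA, CTSC and CTSL in Hampshire and of CTSK and CTSL in Pietrain turned when 1 pig was left out.

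Over both breeds in 1 fit, with breed as a term, 0 of 12831 genes were called (0.00%) and 0 cathepsins. At an unadjusted p under 0.05 there were 3 cathepsins (CTSA, CTSH and CTSZ) and 2903 genes in all (22.6%), and DESeq2 called 1 cathepsin, CTSZ, among 843 genes. The loin weight effect differed between the breeds for 757 of 12831 genes (5.90%) and for none of the cathepsins, of which 0 had an unadjusted p under 0.05, against 22.1% of all genes. By DESeq2 it differed for 1223 genes and 0 cathepsins.

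CTSH, which removes amino acids from the amino end of proteins, lies at chr7:53623062-53644262. Hampshire pigs with high loin weight had 23.8, 44.3 and 77.0 CPM, and those with low loin weight 11.5, 21.9 and 22.4 CPM. Pietrain pigs had 11.1, 15.9, 17.2 and 32.0 CPM at high and 10.22, 15.2 and 20.6 CPM at low loin weight. The Hampshire groups did not overlap, though the lowest pig of the high group lay just above the highest of the low group, and the other 3 groups covered much the same range. The means were 48.4 ± 26.8 in Hampshire high, 19.1 ± 9.01 in Pietrain high, 18.6 ± 6.15 in Hampshire low and 15.3 ± 5.18 in Pietrain low, of which the last 3 did not differ beyond their spread.

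In Hampshire, CTSH differed between high and low loin weight by a log2 fold change of 1.38 (SE 0.41, 2.60-fold, adjusted p = 0.037). Groups apart, with the high group above, were found for 22.4% of all genes in this comparison, and the exact permutation test gave p = 0.1, the smallest that 3 against 3 pigs allow. The call did not survive leaving out any of 5 of the 6 pigs, each alone: without Hampshire high pig 9 the log2 fold change was 0.85 (adjusted p = 0.138), without high pig 10 it was 1.43 (0.0772), without low pig 1 it was 1.08 (0.112), without low pig 2 it was 1.505 (0.0628) and without low pig 3 it was 1.52 (0.0842). Without high pig 8 it was 1.66 (adjusted p = 0.0136). In Pietrain the log2 fold change was 0.35 (SE 0.35, adjusted p = 0.939), and the difference between the breeds in this effect was 1.06 (SE 0.60, adjusted p = 0.323). Against Pietrain, CTSH was higher in Hampshire at high loin weight by 1.34 (SE 0.41, adjusted p = 0.0149), which became 0.80 (adjusted p = 0.139) without Hampshire high pig 9, and the value at low loin weight was 0.28 (adjusted p = 0.671).

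CTSC, also called dipeptidyl peptidase 1, activates the serine proteases of immune cells and lies at chr9:24081771-24116601. At high loin weight, Hampshire pigs had 35.4, 60.8 and 75.6 CPM and Pietrain pigs 26.6, 35.4, 40.9 and 55.4 CPM. At low loin weight, Hampshire pigs had 49.8, 53.5 and 55.2 CPM and Pietrain pigs 25.8, 30.7 and 32.4 CPM. The breeds were thus apart at low loin weight and overlapped at high loin weight, where both groups spread widely. The log2 fold change of Hampshire against Pietrain was 0.83 (SE 0.28, adjusted p = 0.051) at low loin weight and 0.53 (SE 0.26, adjusted p = 0.102) at high loin weight. At low loin weight CTSC passed with DESeq2 (adjusted p = 0.0268) and when only the pigs with low loin weight entered the edgeR fit (adjusted p = 0.013). At high loin weight it passed without Hampshire high pig 8 (adjusted p = 0.0234) and without Pietrain high pig 2 (adjusted p = 0.0311). High against low loin weight gave 0.12 in Hampshire and 0.45 in Pietrain, with adjusted p of 0.769 and 0.939. In order, the means were 57.3 ± 20.3 in Hampshire high, 52.8 ± 2.77 in Hampshire low, 39.6 ± 12.1 in Pietrain high and 29.6 ± 3.43 in Pietrain low, and only the step from Hampshire low to Pietrain high exceeded, narrowly, the spread beside it.

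CTSK, the collagen-degrading cathepsin of osteoclasts and fibroblasts, and CTSS, a cathepsin of antigen-presenting cells that trims the invariant chain of MHC class II, are neighbours on chromosome 4, at chr4:107641167-107653106 and chr4:107666299-107691564. CTSK had 22.5, 35.2 and 50.8 CPM in Hampshire high and 14.2, 20.3 and 25.8 CPM in Hampshire low. In Pietrain it had 13.6, 23.8, 24.1 and 34.7 CPM at high and 19.7, 23.2 and 23.2 CPM at low loin weight. All 4 groups overlapped. High against low loin weight gave a log2 fold change of 0.85 (SE 0.31, adjusted p = 0.0729) in Hampshire and 0.16 (SE 0.28, adjusted p = 0.947) in Pietrain. CTSK passed in Hampshire with DESeq2 (adjusted p = 0.03) and without Hampshire high pig 8 (1.06, adjusted p = 0.0292). Between the breeds its log2 fold change was -0.13 (adjusted p = 0.801) at low and 0.59 (adjusted p = 0.132) at high loin weight. Its mean was 36.2 ± 14.2 in Hampshire high, 24.1 ± 8.63 in Pietrain high, 22.0 ± 2.01 in Pietrain low and 20.1 ± 5.79 in Hampshire low, and no neighbours in that order differed beyond their spread.

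CTSS had 21.4, 23.8 and 44.1 CPM in Hampshire high and 14.0, 23.0 and 26.4 CPM in Hampshire low. It had 10.6, 15.2, 15.7 and 66.9 CPM in Pietrain high and 13.1, 13.5 and 13.8 CPM in Pietrain low. The highest value of all pigs was that of Pietrain high pig 6, while the other 3 pigs of its group lay close to the Pietrain pigs with low loin weight. The group means were 29.8 ± 12.5 in Hampshire high, 27.1 ± 26.7 in Pietrain high, 21.1 ± 6.44 in Hampshire low and 13.5 ± 0.395 in Pietrain low, so the second of these rested on 1 pig, and only the last step exceeded the spread beside it.

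The CTSS values of the comparisons that pig entered moved with it, and the call of Hampshire against Pietrain at high loin weight turned on it. High against low loin weight in Pietrain gave a log2 fold change of 1.04 (SE 0.56, adjusted p = 0.939) with it and 0.10 (adjusted p = 0.873) without it. Hampshire against Pietrain at high loin weight gave 0.13 (SE 0.51, adjusted p = 0.848) with it and 1.07 (adjusted p = 0.011), a call, without it. Among pigs with low loin weight, where it did not enter the contrast, the value was 0.65 (SE 0.55, adjusted p = 0.415), although every Hampshire pig lay above every Pietrain pig. That fit held all 13 pigs with a shared estimate of the spread, so Pietrain high pig 6 still bore on the SE. High against low loin weight in Hampshire gave 0.49 (SE 0.31, adjusted p = 0.271). Pietrain high pig 6 also had the highest values of its breed for CTSB (204 CPM), CTSH (32.0 CPM) and CTSK (34.7 CPM), but not for CTSA or CTSZ.

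In the same pig, the 5 fibroblast genes summed to 1765 CPM and the B and T cell genes to 6.69 CPM, both the highest of the Pietrain pigs, and the 5 muscle fibre genes to 92760 CPM, the lowest of all pigs. Its 12 macrophage genes summed to 64.9 CPM, just under the 66.9 CPM of Pietrain high pig 7, whose CTSS was 15.7 CPM. Within that sum, Pietrain high pig 6 had the highest Pietrain values of CD68 (6.23 CPM), LYZ (4.74), AIF1 (7.27), FCER1G (8.83) and TYROBP (4.35). It did not have the highest of CSF1R, C1QA, C1QB, C1QC, CD14, MRC1 or ITGAM. The part of these cells in its CTSS level was not tested.

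The gene that the reference names CTSL, a strong endopeptidase, had only 5 to 49 reads per pig. It had 0.545, 1.09 and 1.28 CPM in Hampshire high, 0.306, 0.841 and 1.65 CPM in Hampshire low, 0.699, 1.10, 2.32 and 3.18 CPM in Pietrain high and 0.657, 1.34 and 2.85 CPM in Pietrain low. All groups overlapped, and the order of their means (1.82 ± 1.14 in Pietrain high, 1.62 ± 1.12 in Pietrain low, 0.972 ± 0.381 in Hampshire high and 0.933 ± 0.678 in Hampshire low) held no step larger than the spread. Hampshire against Pietrain gave log2 fold changes of -0.77 (SE 0.69, adjusted p = 0.445) at low and -0.90 (SE 0.66, adjusted p = 0.275) at high loin weight. Neither was called, and the parts of the few reads and of the spread between pigs in this were not tested.

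A second gene of the tables, named CTSV in the authors' annotation and listed with CTSL as a synonym in RefSeq, was looked at after its values were seen. It lies at chr10:76997766-77003512 and had 1572 to 3215 reads per pig. It is a close relative, so the counting may have split reads between the 2 genes. Which of the 2 is the pig CTSL was not settled here, so the few reads given above may not be those of CTSL. CTSV had 161 ± 54.2 CPM in Hampshire high, 116 ± 20.1 CPM in Hampshire low, 164 ± 19.2 CPM in Pietrain high and 182 ± 25.2 CPM in Pietrain low. It was not called in any comparison. Between high and low loin weight, its difference of mean log2 CPM was 0.44 in Hampshire and -0.15 in Pietrain, where the 8 cathepsins were above 0. Its mean among pigs with low loin weight was lower in Hampshire, at a log2 fold change of -0.65 (SE 0.23, adjusted p = 0.0578), the opposite sign to CTSA, CTSB and CTSZ.

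Other groups of genes bear directly on cathepsin activity. Log2 fold changes in Hampshire between high and low loin weight fell with genomic gene length (Spearman's rho of -0.39 over 9975 genes). Only the cathepsins were looked at with that trend removed, so its part in the values of these groups was not tested. The first group is that of inhibitors, of which the cystatins act on the cysteine cathepsins. Of 10 listed inhibitors 6 were tested. CST3 (cystatin C, secreted), CSTB (cystatin B, in the cytosol) and CST6 (cystatin E/M) were called higher with high loin weight in Hampshire, so that 3 of 6 inhibitors were called there, and the median of the 6 was 1.27 (log2). Of all genes tested there, 12.0% were called higher, and their median was 0.03. CST3 had 254, 288 and 335 CPM in Hampshire high and 71.9, 123 and 160.3 CPM in Hampshire low. Pietrain pigs had 27.3 to 83.2 CPM of CST3 over both classes. The 2 Hampshire groups were fully apart, while the lowest Hampshire pig lay below the highest Pietrain pig.

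The log2 fold change of CST3 in Hampshire was 1.31 (SE 0.27, adjusted p = 0.0113). For CSTB it was 1.29 (SE 0.32, adjusted p = 0.0201), with 19.3, 25.6 and 49.7 CPM at high and 12.5, 12.9 and 13.2 CPM at low loin weight. For CST6 it was 1.26 (SE 0.24, adjusted p = 0.00808), with 26.5, 27.4 and 32.1 CPM at high and 8.27, 11.6 and 16.0 CPM at low loin weight. The Hampshire classes did not overlap for these 3 cystatins, a separation with the high group above that 22.4% of all genes showed. Against Pietrain at low loin weight, CST3 (1.65, adjusted p = 0.0148) and CST6 (1.85, adjusted p = 0.00982) were higher in Hampshire, and CSTB had a log2 fold change of 0.74 (adjusted p = 0.109). At high loin weight CST3 (2.47, adjusted p = 8.21e-05), CSTB (1.48, adjusted p = 0.000994), CST6 (2.49, adjusted p = 3.92e-05) and CST7 (2.85, adjusted p = 0.00511), the leukocyte cystatin F, were higher in Hampshire. That made 4 of 6 inhibitors called, at a median log2 fold change of 1.98, and 2 of 6 at low loin weight, at 1.19. Of the 4, CST7 had few reads, with 12 to 38 per pig in Hampshire high and 1 to 8 in Pietrain high. Of all genes, 22.6% were called higher in Hampshire at high and 7.84% at low loin weight. In Pietrain 0 of 5 inhibitors tested were called between high and low loin weight, where 0 of all 12065 genes were called.

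**Figure D3:**
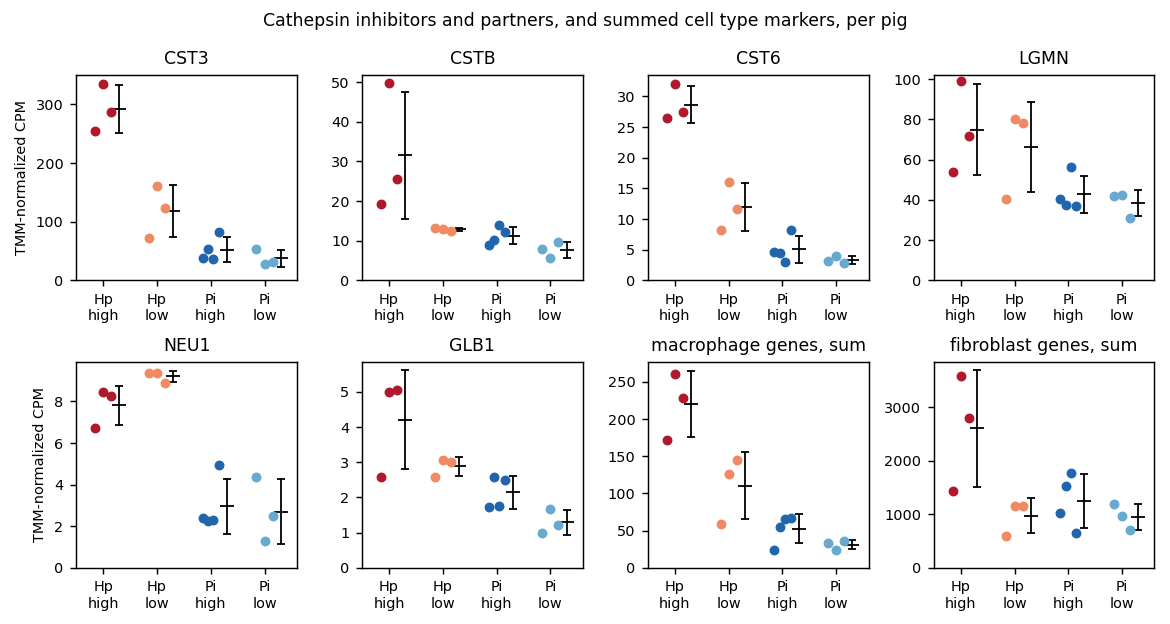
TMM-normalized CPM per pig (points) with the mean and standard deviation of each group (black) for the cystatins CST3, CSTB and CST6, the processing protease LGMN, the CTSA partners NEU1 and GLB1, and the summed CPM of 12 macrophage and 5 fibroblast genes (Hp, Hampshire; Pi, Pietrain). The 3 Hampshire pigs with high loin weight lie above all other pigs for each cystatin and for the macrophage sum.

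The second group is that of the other lysosomal peptidases, of which 8 of 11 were tested. LGMN, the asparaginyl endopeptidase that processes several cathepsins, had 40.3 to 98.9 CPM in Hampshire and 31.0 to 56.5 CPM in Pietrain. It was higher in Hampshire at high loin weight (0.81, adjusted p = 0.0219), and by 0.78 at low loin weight (adjusted p = 0.0685). In Hampshire 3 of the 8 were called higher with high loin weight: SCPEP1, a carboxypeptidase related to CTSA (0.81, adjusted p = 0.017), PRCP, a carboxypeptidase that cleaves after proline (0.83, adjusted p = 0.0271), and CPQ, a plasma and lysosomal carboxypeptidase (1.04, adjusted p = 0.0377). Against Pietrain, 1 of 8 was called higher at low and 5 of 8 at high loin weight, and none lower. Over all genes, 12.0% were called higher with high loin weight in Hampshire. Against Pietrain it was 7.84% at low and 22.6% at high loin weight. In Pietrain 0 of 8 were called, where 0 of all 12065 genes were called.

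The third group sorts enzymes to lysosomes. M6PR, the smaller mannose 6-phosphate receptor, was not called in any comparison and had log2 fold changes between -0.17 and -0.001 in the Hampshire, pooled and breed comparisons. IGF2R, the larger receptor, had 12.5, 13.6 and 13.8 CPM in Hampshire high and 21.9, 27.8 and 29.9 CPM in Hampshire low. In Pietrain it had 16.1, 30.8, 30.8 and 36.7 CPM at high and 17.3, 18.7 and 21.1 CPM at low loin weight. It was thus lower with high loin weight in Hampshire (log2 fold change -0.996, adjusted p = 0.00632), while in Pietrain the log2 fold change was 0.62 (adjusted p = 0.939), and the difference between the breeds passed the test (-1.58, adjusted p = 0.0169). SORT1, which can carry some lysosomal proteins without mannose 6-phosphate, was lower as well in Hampshire (-1.01, adjusted p = 0.0154). These were the 2 of 9 sorting genes called in Hampshire, where 1788 of all 12228 genes were called lower.

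Of 25 lysosomal glycosidases, lipases and sulfatases tested, 7 were called higher and 1 lower with high loin weight in Hampshire. Of all 12228 genes, 1468 were called higher and 1788 lower there. MAN2B1, an alpha-mannosidase (0.96, adjusted p = 0.022), ARSA, arylsulfatase A (1.29, adjusted p = 0.0257) and HEXA, a beta-hexosaminidase subunit (0.56, adjusted p = 0.0382), were among those higher. Against Pietrain, 8 were higher and 0 lower at low loin weight, and 13 higher and 2 lower at high loin weight. Of all 12831 genes, 1006 were higher and 1294 lower at low loin weight, and 2896 higher and 3105 lower at high loin weight. Of 14 lysosomal membrane proteins, 3 were called higher with high loin weight in Hampshire (MCOLN1, a calcium channel, NPC2, a cholesterol carrier, and CD63) and LAMP2, a receptor of chaperone-mediated autophagy, was lower (-0.55, adjusted p = 0.0299). LAMP1 was higher in Hampshire than in Pietrain at low (0.78, adjusted p = 0.0229) and at high loin weight (0.74, adjusted p = 0.00506). Among these 14, 5 were higher and 0 lower at low loin weight, and 8 higher and 2 lower at high loin weight.

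Of 12 vacuolar proton pump genes, whose product acidifies lysosomes, 3 were higher and 1 lower with high loin weight in Hampshire, and their median log2 fold change was -0.03. Those higher were ATP6V0C (0.72, adjusted p = 0.0253), ATP6V0D1 (0.54, adjusted p = 0.0424) and ATP6V0E1 (0.77, adjusted p = 0.0223). Against Pietrain, 3 were higher and 0 lower at low and 5 higher and 3 lower at high loin weight. Over all genes, 12.0% were called higher with high loin weight in Hampshire. Against Pietrain it was 7.84% at low and 22.6% at high loin weight. TFEB, the main activator of lysosomal genes, was higher in Hampshire than in Pietrain at high loin weight (0.60, adjusted p = 0.0243), and in Hampshire its log2 fold change with high loin weight was 0.42 (adjusted p = 0.0552). TFE3, a related factor, was not called. Of 6 regulators tested in Hampshire, RRAGC and FNIP1, which act on lysosomal nutrient signalling, were lower with high loin weight (-1.09, adjusted p = 0.00592, and -0.91, adjusted p = 0.00626), and 0 were higher. Between the breeds, 0 of 7 regulators were called at low loin weight, and 1 was higher and 2 lower at high loin weight. Of the sorting genes, 1 was higher and 0 lower in Hampshire at low loin weight, and 2 were higher and 2 lower at high loin weight. Over all genes, 1788 of 12228 were called lower with high loin weight in Hampshire. Against Pietrain, 1294 of 12831 were called lower at low and 3105 at high loin weight.

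Autophagy delivers much of what cathepsins digest in muscle. Of 19 autophagy genes, 5 were higher and 1 lower with high loin weight in Hampshire, among them GABARAPL1 (1.12, adjusted p = 0.00795), MAP1LC3A (0.92, adjusted p = 0.00681) and WIPI2 (0.67, adjusted p = 0.0186). Between the breeds, 2 were higher and 3 lower in Hampshire at low loin weight, and 7 higher and 2 lower at high loin weight, and the median log2 fold change was 0.01 at low and 0.02 at high loin weight. Over all genes, 12.0% were called higher with high loin weight in Hampshire. Against Pietrain it was 7.84% at low and 22.6% at high loin weight. Lower calls over all genes came to 1788 of 12228 with high loin weight in Hampshire. Against Pietrain they came to 1294 of 12831 at low and 3105 at high loin weight. In Pietrain, no gene of any of these lists was called between high and low loin weight, nor was any of the 12065 genes tested there.

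Marker genes of other cell types were counted in the same comparisons. The 12 macrophage genes, all above 0 in some pig, summed to 172 to 260.3 CPM in Hampshire high, 59.2 to 145 CPM in Hampshire low, 24.0 to 66.9 CPM in Pietrain high and 24.1 to 35.4 CPM in Pietrain low. Their log2 fold change was above 0 for 12 of 12 in each of the comparisons between breeds and between loin weights within a breed. Of the 12, 4 were called higher with high loin weight in Hampshire, 0 in Pietrain, 6 in Hampshire against Pietrain at low and 10 at high loin weight, and CD68, a lysosomal protein that marks macrophages, was among those at low loin weight. In these 4 comparisons, 12.0%, 0.00%, 7.84% and 22.6% of all genes were called higher. The 5 fibroblast genes summed to 1430 to 3581 CPM in Hampshire high and 592.5 to 1160 CPM in Hampshire low, where 2 were called higher with high loin weight, COL3A1 (1.44, adjusted p = 0.0341) and DCN (1.55, adjusted p = 0.0082). In Pietrain they summed to 654 to 1765 CPM at high and 700 to 1182 CPM at low loin weight, and 0 of 5 were called. The fibroblast genes were not called between the breeds at low loin weight (median -0.14, log2), where CTSA, CTSB and CTSZ were higher in Hampshire, and 2 of 5 were called higher at high loin weight.

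The 5 muscle fibre genes summed to 168800 to 246200 CPM in Hampshire high, 131100 to 202500 CPM in Hampshire low, 92760 to 159900 CPM in Pietrain high and 110200 to 127300 CPM in Pietrain low. Of these, CKM and MYH7 were higher and MYH1 lower with high loin weight in Hampshire. Of all 12228 genes, 1468 were called higher and 1788 lower there. Against Pietrain, 2 muscle fibre genes were higher in Hampshire at high loin weight and 0 at low loin weight, where 7.84% of all genes were called higher. Of 3 endothelial genes and 1 adipocyte gene, 0 were called in any comparison. Of 5 B and T cell genes tested, 3 were called, all higher, in Hampshire against Pietrain at high loin weight and 0 in the other comparisons. At high loin weight, 22.6% of all genes were called higher in Hampshire. The part of any of these cells in the cathepsin differences was not tested.

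The likeness of 2 genes was measured as Pearson's r of log2 CPM across the 13 pigs, after each group's mean was taken off, and is given as a description. The points share library, depth and base composition. Of the 28 pairs of cathepsins, 24 had an r above 0, and the median was 0.45. The highest values were those of CTSB with CTSH (0.85), CTSB with CTSS (0.82) and CTSH with CTSK (0.78). CTSA had r between -0.30 (CTSS) and 0.46 (CTSZ) with the cysteine cathepsins. Its values with CTSB, CTSH and CTSS rested largely on 1 pig, Pietrain high pig 6. That with CTSC was -0.21 with this pig and -0.19 without it.

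**Figure D4:**
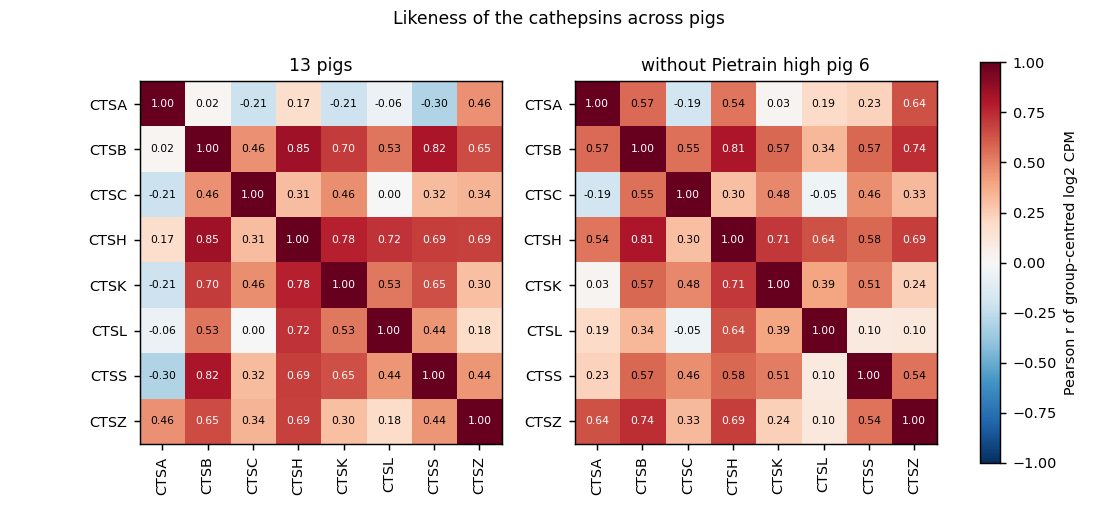
Pearson's r of group-centred log2 CPM between each pair of cathepsins over all 13 pigs (left) and over 12 pigs without Pietrain high pig 6 (right), on a colour scale from -1 to 1. CTSA with CTSS is -0.30 on the left and 0.23 on the right, while CTSB with CTSH is 0.85 and 0.81.

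Pietrain high pig 6 also shaped these values. Without it, 26 of 28 pairs were above 0 and the median was 0.50. CTSA with CTSB went from 0.02 to 0.57, CTSA with CTSH from 0.17 to 0.54, CTSA with CTSZ from 0.46 to 0.64, CTSA with CTSS from -0.30 to 0.23, and CTSB with CTSS from 0.82 to 0.57. CTSB with CTSH (0.81 without it) and CTSH with CTSK (0.71) moved little.

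Among the 9814 genes with a symbol, those most like CTSS included CD200R1 (0.94) and VAV1 (0.93), which are known from leukocytes, and without Pietrain high pig 6 their r was 0.75 and 0.85. CTSK was most like CYBRD1 (0.94), LUM (0.94), a collagen-binding proteoglycan of fibroblasts, and F2RL2 (0.94). CTSH was most like MMP19 (0.92), LGMN (0.92) and DVL3 (0.91), and LGMN was the only other lysosomal protease among the genes so named. CTSB was most like DOK2 (0.94), SRPX (0.93) and LTBP1 (0.92), and CTSA was most like RHOT2 (0.96), POMT1 (0.94) and HOGA1 (0.94). CTSZ was most like CHPT1 (0.92), RAD54L (0.89) and RAB3IL1 (0.89), and CTSC was most like ALKBH1 (0.88), GLI3 (0.86) and UIMC1 (0.85). For CTSL, at its few reads, PRTFDC1 (0.89), PHLPP1 (0.89) and ZCCHC7 (0.88) came first.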

How the data were processed

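The authors isolated RNA from loin muscle collected at slaughter, made poly(A) libraries with a kit that does not mark the strand, and sequenced single-end reads in 4 technical runs per pig. They aligned the reads to Sscrofa10.2 and deposited, for each pig, the raw read counts of the Ensembl genes. The submitters' processing notes name FastQC, STAR, RSEM and DESeq2; their versions and the annotation release are not given in the sources used here. The authors also deposited a table of their own comparison per breed (fold changes and p-values), of which only identifiers, symbols and coordinates were used.

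Symbols came from these tables, from a table of Ensembl names and, for names only, from RefSeq on Sscrofa11.1; 13168 of 25322 identifiers had one, and 140 of 174 listed symbols matched. The counts were analysed in R 4.3.3 with edgeR 4.0.16 (TMM, filterByExpr by group, glmQLFit, glmQLFTest) over the whole table, separately within each breed for loin weight, and over all 13 pigs for the breed comparisons, the pooled effect and the difference of effects. A standard error is the size of the log2 value divided by the root of the F statistic. Exact permutation tests (scipy 1.17.1) used log2 CPM with a pseudocount of 0.5. Plots used matplotlib 3.10.9 under Python 3.11.15.

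The members and lists were chosen with earlier results of these data known. Named were all cathepsins, fixed partners (NEU1, GLB1, LGMN, CST3, CSTB, CST6, TFEB, TFE3, M6PR, IGF2R, PSAP, LAMP1, LAMP2), per list at most 3 genes with the smallest pooled p among those called there or in Hampshire, and the 3 genes most like each cathepsin, of which a gene is not reported here; CTSV, CST7, CD68, the genes overlapping members and some counted markers were named after their values were seen. The study's table of loin weights gives 3 Pietrain pigs with high loin weight; the 4 of the sample labels were used. Alternatives were DESeq2 1.42.0, its size factors, other filters (none, or at least 10 counts in every pig), no minimum fold, another set of pigs in the fit, leaving out each pig and, added after seeing the data, removing the trend with gene length and the likeness without Pietrain high pig 6. The scripts were tested on simulated counts. Sequences were not used here.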

Additional observations from a re-analysis of the deposited data

Results flagged for a closer look

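Of 48 genes tested for a pig far from the others of the only group with 4 pigs, Pietrain high, 4 had such a pig, where chance gives about 1 in 20. CTSS had 66.9 CPM in Pietrain high pig 6, above 10.6 to 15.7 CPM in the other 3. CKM had 25250 CPM in pig 7 and NEU1 4.95 CPM in pig 7, while SORT1 had 12.0 CPM in pig 2, each the highest of the 4.

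Of the genes named, 3 had a loin weight effect that differed between the breeds by the edgeR test of the difference, and none of them was a cathepsin. ATP6V0E1 had a log2 difference (Hampshire minus Pietrain) of 0.93 (adjusted p = 0.0407), with 0.77 in Hampshire and -0.12 in Pietrain. IGF2R had -1.58 (adjusted p = 0.0169), with -0.996 and 0.62. RRAGC had -1.14 (adjusted p = 0.0453), with -1.09 and 0.10.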

How the results depend on the processing

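No paired analysis was possible because the pig numbers name separate, unrelated pigs and the groups compared share at most 1 number. The number of cathepsins called in Hampshire between high and low loin weight was 1, and 3 with DESeq2 (CTSH, CTSK and CTSZ), and leaving out each pig gave 0 to 3. Over both breeds it was 0, and 1 with DESeq2 (CTSZ). Leaving out each pig gave 1 to 3 for Hampshire against Pietrain at low loin weight, with 1 (CTSA) without Pietrain low pig 8, and 3 to 5 at high loin weight. Other settings kept each count within 1.5 times.

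Log2 fold changes of uncalled genes turned in sign. In Hampshire between high and low loin weight, CTSL was -0.006 with no filter, and CTSA was -0.016 with at least 10 counts in every pig and -0.24 with the trend with gene length removed, which also turned the difference of effects of CTSZ to -0.021. Over leaving out each pig, the Hampshire effect ranged from -0.092 to 0.156 for CTSA, from -0.16 to 0.33 for CTSC and from -0.42 to 0.77 for CTSL, and the Pietrain effect from -0.054 to 0.348 for CTSK and from -0.18 to 0.85 for CTSL. The difference of effects ranged from -0.208 to 0.091 for CTSB, from -0.84 to 0.54 for CTSL, from -0.97 to 0.37 for CTSS and from -0.23 to 0.44 for CTSZ. The pooled effect of CTSL ranged from -0.11 to 0.42, CTSK between the breeds at low loin weight from -0.308 to 0.078, and CTSS at high loin weight from -0.30 to 1.07. The cause was not tested. Log2 fold changes in Hampshire fell with genomic gene length (Spearman's rho of -0.39 over 9975 genes, no independent replicates), and CTSH stayed called with that trend removed. Genes of the other lists were not looked at with it removed. The gene taken as CTSL had only 5 to 49 reads per pig, and the part of depth in its spread was not tested.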
